A study of Homo sapiens with 4 samples.

Results

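Binding regions of the transcription factor ONECUT2 on human chromosome 8 were taken from all 3 deposited lists by 1 rule, that the region lies on chromosome 8. The rule gave 645 of 14431 peaks in the replicate 1 list, 579 of 11990 peaks in the replicate 2 list and 197 of 4297 regions in a list made by an irreproducible discovery rate (IDR) procedure, whose purpose is to retain regions that rank similarly between replicates. The other 21 autosomes, against which chromosome 8 was set, held 13368 peaks, 11098 peaks and 4064 regions. All libraries came from 22Rv1 cells, an established line of castration-resistant human prostate carcinoma, for which the labels name no treatment. Per the labels, 2 ChIP libraries were prepared with an anti-ONECUT2 antibody and 2 others were input DNA, with no other genotype or condition. Separate cultures are not named for the ChIP libraries in the labels, and the spread between replicates 1 and 2 may therefore be technical. Positions are in the genome build hg19, counted from 1.

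Chromatin immunoprecipitation followed by sequencing (ChIP-seq) recovers DNA fragments cross-linked to a protein, and a peak is a place where such fragments pile up above the input DNA. ONECUT2 binds DNA through a CUT domain together with a homeodomain, and it has been studied as a driver of castration-resistant prostate cancer. Chromosome 8 is often rearranged in prostate carcinoma, where parts of the short arm are commonly lost and the long arm is commonly gained. Band 8q24 of the long arm holds the oncogene MYC and many inherited risk variants for prostate cancer. No gene was assigned to a peak, because an annotation of the build of the lists was not used here.

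Chromosome 8 carried ONECUT2 peaks at about the density of the other autosomes pooled, and its peaks were of the same height. The short arm carried more peaks per Mb than the long arm in all 3 lists, a call that held under every alternative run in the IDR list but not in the replicate lists. The most crowded stretch of the short arm, picked out after its counts were seen, lay at 26 to 31 Mb. The last 3 Mb before 130 Mb, in band 8q24, held 10 peaks, 9 peaks and 2 regions in the 3 lists, with a single site above 6-fold. The tallest site lay on the long arm near 81.9 Mb and was enriched 30.1-fold and 23.7-fold over background in replicates 1 and 2.

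Replicate 1 had 4.41 peaks per Mb on chromosome 8 (95% exact Poisson interval 4.07 to 4.76), against 4.89 on the other autosomes. Replicate 2 had 3.96 peaks per Mb on chromosome 8 (3.64 to 4.29), against 4.06 on the other autosomes. The IDR list had 1.35 regions per Mb on chromosome 8 (1.16 to 1.55), against 1.49 on the other autosomes. Chromosome 8 thus ranked 9, 7 and 8 among the 22 autosomes, above the median autosome, which had 4.13 and 3.21 peaks and 1.14 regions per Mb. These intervals cover counting error only.

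Counts in windows of 1 Mb vary more than counting error allows, so density ratios came from a quasi-Poisson regression over windows with the chromosome as its term. The windows are places within the same libraries and do not stand for replicate experiments. The ratio of chromosome 8 to the other autosomes was 0.902 in replicate 1 (95% interval 0.746 to 1.09, n = 2897 windows, quasi-Poisson p = 0.347 after Benjamini-Hochberg adjustment over the autosomes). It was 0.975 in replicate 2 (0.806 to 1.18, n = 2897 windows, adjusted p = 0.830) and 0.906 in the IDR list (0.726 to 1.13, adjusted p = 0.399). The mean over the 2 replicate lists was 0.937 ± 0.0518 (SD, n = 2). No difference in density passed the threshold, and over the 3 lists the intervals reach from 0.726 to 1.18 times the other autosomes. Single autosomes often did differ from the others, since 15 of 22 (68.2%) passed an adjusted p of 0.05 in replicate 1, 15 of 22 (68.2%) in replicate 2 and 14 of 22 (63.6%) in the IDR list. The direction of the small deficit depended on which autosomes were used. Chromosomes 1, 7 and 12 were denser than the pooled other autosomes in each list, with 2.35, 2.68 and 3.13 regions per Mb in the IDR list. A higher ratio therefore follows from leaving them out. Chromosomes 17 and 19, with 2.83 and 3.94 regions per Mb in the IDR list, were also denser in each list. They stayed in the comparison. Without chromosomes 1, 7 and 12 in the comparison, the ratio was 1.03 in replicate 1, 1.22 in replicate 2 (an adjusted p of 0.0811) and 1.12 in the IDR list.

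**Figure D1:**
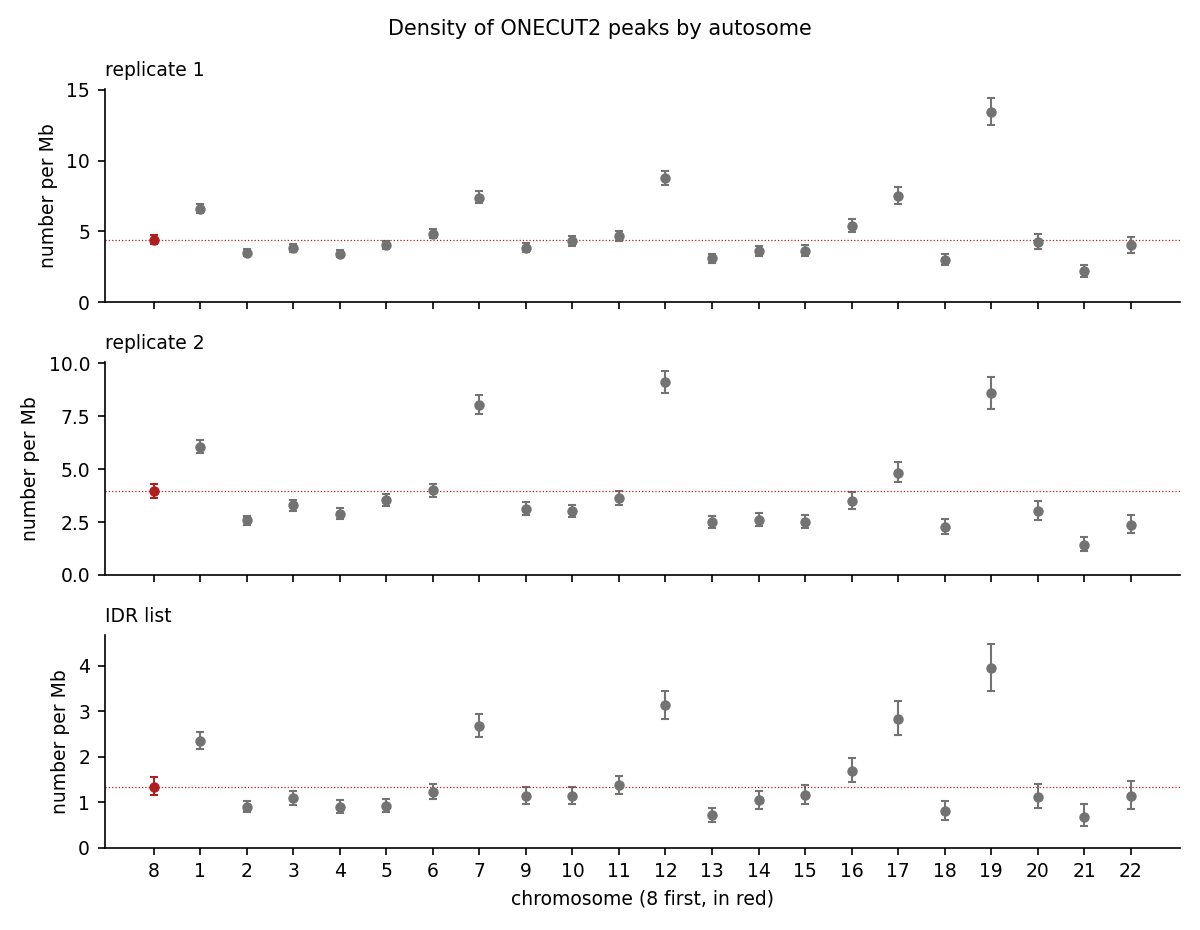
Peaks or regions per Mb on each autosome in the 3 lists, with chromosome 8 first and in red, 95% exact Poisson intervals as error bars and a dotted line at the level of chromosome 8. Chromosome 8, with 4.41 and 3.96 peaks and 1.35 regions per Mb, lies in the upper middle of the autosomes.

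The fold enrichment of a peak is the ChIP pileup at its summit over the local input background, as the authors' peak caller gave it. On chromosome 8 its median was 3.30 in replicate 1, against 3.27 on the other autosomes. In replicate 2 the median was 3.41 on chromosome 8 and 3.41 on the other autosomes. The middle 50% of chromosome 8 peaks spanned 2.77-fold to 4.04-fold in replicate 1 and 2.88-fold to 4.09-fold in replicate 2. Most sites were therefore modest, with a long tail that reached 30.1-fold in replicate 1 and 23.7-fold in replicate 2. The peaks were narrow, with median widths of 307 and 281 bp on chromosome 8, against 317 and 294 bp on the other autosomes. The IDR regions were wider, at a median of 1892 bp on chromosome 8 and 1772.5 bp on the other autosomes.

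The number of ChIP fragments behind each summit could be recovered from the deposited fold and p-value. A median chromosome 8 peak rested on 33 fragments in replicate 1 over a background of 9.20, and on 28 fragments in replicate 2 over a background of 7.32. The other autosomes had medians of 35 and 30 fragments over 10.5 and 7.43. A typical peak thus rests on few fragments, which limits the precision of any single fold.

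Tall peaks were about as frequent on chromosome 8 as elsewhere. In replicate 1, 50 chromosome 8 peaks (7.75%, 95% Clopper-Pearson interval 5.81 to 10.1) reached 6-fold, against 7.36% on the other autosomes and 7.46% of the whole list. In replicate 2, 36 chromosome 8 peaks (6.22%, 4.39 to 8.50) reached 6-fold, against 7.05% on the other autosomes and 7.08% of the whole list. The 2 peaks nearest this threshold had folds of 6.09 and 5.95 in replicate 1, and 6.16 and 5.89 in replicate 2. Peaks of 10-fold or more numbered 15 on chromosome 8 in replicate 1 (2.33%, with 2.53% in the whole list) and 10 in replicate 2 (1.73%, with 1.99% in the whole list). The density of peaks of 6-fold or more on chromosome 8 was 0.949 times that of the other autosomes in replicate 1 (0.696 to 1.29, n = 2897 windows, quasi-Poisson adjusted p = 0.881), where 6 of 22 autosomes (27.3%) passed. It was 0.86 times in replicate 2 (0.607 to 1.22, n = 2897 windows, adjusted p = 0.546), where 7 of 22 (31.8%) passed. Without chromosomes 1, 7 and 12 the replicate 1 ratio was 1.01.

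About the same share of chromosome 8 peaks as of peaks elsewhere was found in both libraries. Of the replicate 1 peaks on chromosome 8, 327 (50.7%, 46.8 to 54.6) overlapped a replicate 2 peak by at least 1 bp, against 50.9% on the other autosomes and 51.1% of the whole list. Of the replicate 2 peaks on chromosome 8, 353 (61.0%, 56.9 to 65.0) overlapped a replicate 1 peak, against 64.2% on the other autosomes and 64.5% of the whole list. The odds ratio of chromosome 8 to the other autosomes was 0.993 for replicate 1 peaks (0.841 to 1.17, quasi-binomial regression over windows, adjusted p = 0.936) and 0.869 for replicate 2 peaks (0.708 to 1.07, adjusted p = 0.222). In replicate 1 no autosome passed this test (0.0%, with 2 at an unadjusted p below 0.05), and in replicate 2 there were 6 (27.3%). Without chromosomes 1, 7 and 12 the ratio was 1.03 for replicate 1 peaks and 0.690 for replicate 2 peaks (0.559 to 0.85, quasi-binomial adjusted p = 0.00157), so the replicate 2 value then passed.

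All 50 of the replicate 1 peaks and all 36 of the replicate 2 peaks of 6-fold or more on chromosome 8 overlapped a peak of the other replicate. On the other autosomes 982 of 984 and 777 of 782 did so. The sites seen in 1 library only on chromosome 8 were thus all below 6-fold.

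The 327 overlapping pairs of chromosome 8 used 311 different replicate 2 peaks, because a wide peak could overlap more than 1 narrow one. In 216 pairs (66.1%) the fold was higher in replicate 1, against 66.9% on the other autosomes. The median log2 ratio of replicate 2 to replicate 1 was −0.15 (SD 0.36) on chromosome 8 and −0.15 on the other autosomes. The shift between the libraries was thus of the same size on chromosome 8 and elsewhere. Summits of a pair lay a median of 82 bp apart on chromosome 8 and 79 bp apart on the other autosomes. Across the 327 pairs, which share their places and may share input DNA, the folds had a rank correlation of 0.748. In 33 pairs (10.1%) both folds reached 6, against 9.79% of pairs on the other autosomes, and 19 of the 33 were on the long arm and 14 on the short arm. Of the 33, 26 (78.8%) overlapped an IDR region, against 86.3% of such pairs on the other autosomes. Their summits were a median of 37 bp apart.

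**Figure D2:**
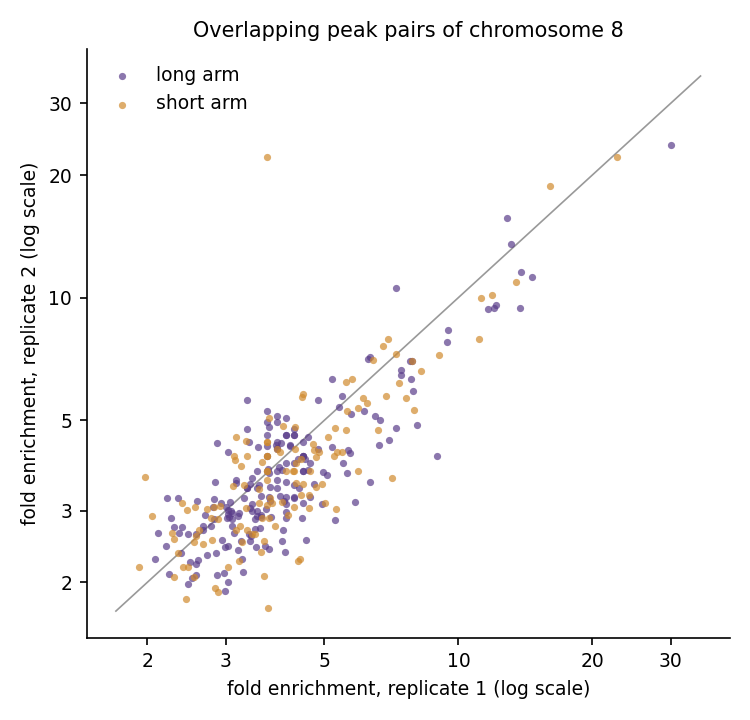
Fold enrichment of the 327 overlapping chromosome 8 peak pairs, replicate 1 on the horizontal and replicate 2 on the vertical log axis, coloured by arm, with the line of equal fold. In 216 pairs the point lies on the replicate 1 side of the line, and points of both arms lie along its whole length.

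Of the 197 IDR regions of chromosome 8, 124 (62.9%) overlapped a peak in both replicate lists, against 63.3% of all IDR regions. Another 29 (14.7%) overlapped a peak of replicate 1 only, against 15.6% of all, and 5 (2.54%) a peak of replicate 2 only, against 2.82% of all. The remaining 39 (19.8%) overlapped no peak, against 18.3% of all. Of the peaks themselves, 214 in replicate 1 (33.2%, with 32.8% in the whole list) and 172 in replicate 2 (29.7%, with 31.4% in the whole list) lay in an IDR region. The IDR list is therefore no plain subset of the peak lists, and the sources used here do not tell how it was built from the libraries.

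The arms of chromosome 8 were set apart at the centromere gap of hg19, from 43.8 to 46.8 Mb. The short arm spans 43.8 Mb and the long arm 99.5 Mb, so the short arm makes up 30.6% of the length outside the gap. It held 39.8% of the replicate 1 peaks, 41.6% of the replicate 2 peaks and 51.8% of the IDR regions.

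Replicate 1 had 388 peaks on the long arm, or 3.90 per Mb (3.52 to 4.31), against 257 on the short arm, or 5.86 per Mb (5.17 to 6.62). The long arm thus had 0.665 times the density of the short arm (0.448 to 0.987, n = 145 windows, quasi-Poisson p = 0.0427 adjusted over the 3 lists). Replicate 2 had 338 peaks on the long arm, or 3.396 per Mb (3.04 to 3.78), against 241 on the short arm, or 5.50 per Mb (4.83 to 6.24). The ratio was 0.618 (0.408 to 0.936, n = 145 windows, quasi-Poisson adjusted p = 0.0352). In the IDR list the long arm had 95 regions, or 0.955 per Mb (0.772 to 1.17), against 102 on the short arm, or 2.33 per Mb (1.90 to 2.82). Here the ratio was 0.410 (0.268 to 0.629, n = 145 windows, quasi-Poisson adjusted p = 0.000186). The counting intervals of the arms did not overlap in any of the 3 lists, but they leave out the further spread between windows and are too narrow. The calls in the replicate lists depended on the fit, since windows of 5 Mb gave an adjusted p of 0.211 in replicate 1 and 0.176 in replicate 2, and negative binomial regression gave 0.0774 in replicate 1. In the IDR list windows of 5 Mb gave a wider interval of 0.218 to 0.774 and a quasi-Poisson adjusted p of 0.0226.

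In a comparison added after the arm densities were seen, each arm was set against the other autosomes. In the IDR list the long arm had 0.642 times their density (0.469 to 0.879) and the short arm 1.57 times (1.16 to 2.12), both with a quasi-Poisson adjusted p of 0.0173 over 6 such ratios. In replicate 1 the ratios were 0.798 for the long arm (an adjusted p of 0.100) and 1.20 for the short arm (an adjusted p of 0.229). In replicate 2 they were 0.837 for the long arm (an adjusted p of 0.185) and 1.35 for the short arm (an adjusted p of 0.0790). Only the IDR list thus placed both arms away from the other autosomes past the threshold. Passing was common in that list, where 14 of 22 whole autosomes (63.6%) differed from the others. Arms of other chromosomes were not tested, so the result is not shown to be particular to chromosome 8.

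The arm difference was one of number, with little difference in height. The median fold was 3.30 on the long arm and 3.30 on the short arm in replicate 1, and 3.39 on the long arm and 3.41 on the short arm in replicate 2. The median IDR signal, a deposited value whose scale is not named, was 186 on the long arm and 195 on the short arm. In every class of fold the long arm had fewer peaks per Mb. Below 3-fold, replicate 1 had 1.39 per Mb on the long arm and 2.12 on the short arm, and from 3-fold to 6-fold it had 2.22 on the long arm and 3.26 on the short arm. From 6-fold to 10-fold it had 0.201 per Mb on the long arm and 0.342 on the short arm, and at 10-fold or more 0.0904 on the long arm and 0.137 on the short arm. Replicate 2 had 1.07 per Mb on the long arm against 1.64 on the short arm below 3-fold, and 0.0603 on the long arm against 0.0912 on the short arm at 10-fold or more. For peaks of 6-fold or more as a group, the long arm had 29 and the short arm 21 in replicate 1, a density ratio of 0.608 (0.338 to 1.09, n = 145 windows, quasi-Poisson adjusted p = 0.0982). In replicate 2 there were 20 on the long arm and 16 on the short arm, a ratio of 0.551 (0.271 to 1.12, n = 145 windows, quasi-Poisson adjusted p = 0.0982). With so few tall peaks these ratios did not pass, although they were about as far from 1 as those of all peaks.

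The arms also differed in their background, whose part in the arm difference was not tested. Backgrounds at the smallest value used for each library, 4.37 fragments in replicate 1 and 4.87 in replicate 2, lay under 20.4% of long-arm and 12.5% of short-arm peaks in replicate 1. In replicate 2 they lay under 31.4% of long-arm and 18.7% of short-arm peaks. The 90th percentile of background was 15.9 fragments on the long arm and 19.7 on the short arm in replicate 1, and 16.8 on the long arm and 20.4 on the short arm in replicate 2. Short-arm peaks thus lay over higher input background more often. Peaks also lay in an IDR region less often on the long arm, at 29.1% (24.6 to 33.9) against 39.3% (33.3 to 45.6) on the short arm in replicate 1, and at 27.2% (22.5 to 32.3) against 33.2% (27.3 to 39.5) on the short arm in replicate 2. That difference was not tested.

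**Figure D3:**
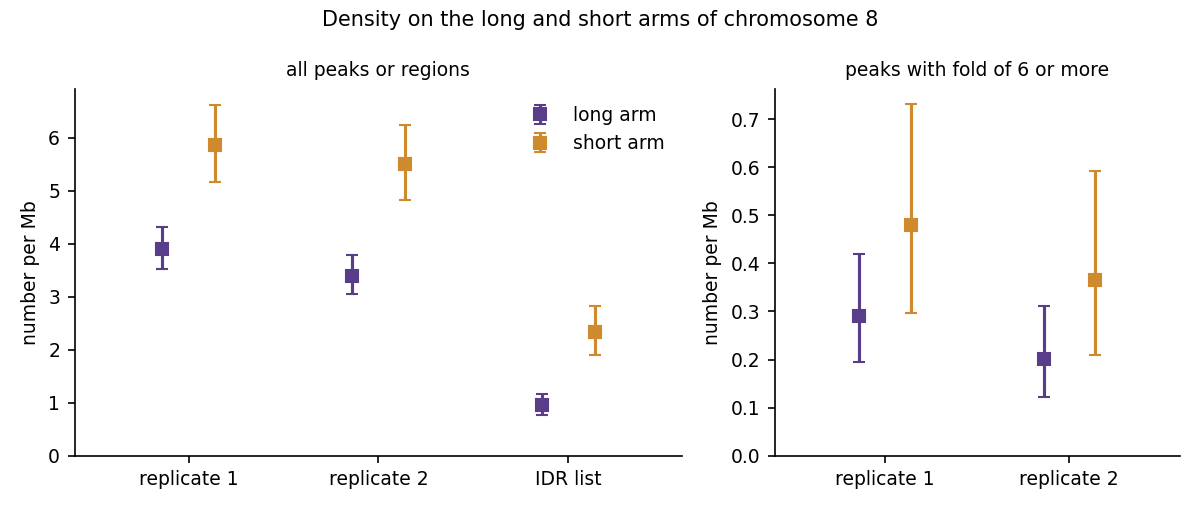
Density per Mb of the long arm (purple, left) and the short arm (orange, right) of chromosome 8 in each list, for all members and for peaks of 6-fold or more, with 95% exact Poisson intervals. The long arm is lower throughout, with 0.955 against 2.33 regions per Mb in the IDR list.

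Peaks were unevenly spread along the chromosome. Of its 147 windows of 1 Mb, 115 held a replicate 1 peak, 115 a replicate 2 peak and 84 an IDR region. The median window held 3 replicate 1 peaks, 2 replicate 2 peaks and 1 IDR region, while the fullest held 24, 35 and 9. The fullest 15 windows held 37.8% of the replicate 1 peaks, 40.8% of the replicate 2 peaks and 44.2% of the IDR regions. The variance of the counts over their mean was 5.71, 6.70 and 2.60, which ranked 10, 6 and 8 among the 22 autosomes, so chromosome 8 stood in the middle or upper part of them. Of the windows, 109 held peaks of both libraries, 6 of replicate 1 only and 6 of replicate 2 only. Over all 147 windows the counts of the libraries had a Pearson correlation of 0.877 and a rank correlation of 0.862.

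Neighbouring peaks were often close together. A second peak lay within 5 kb of 51.9% of the replicate 1 peaks and 53.7% of the replicate 2 peaks on chromosome 8, against 51.0% and 50.2% on the other autosomes. When peaks within 5 kb were counted once, 442 places were left in replicate 1 and 388 in replicate 2. IDR regions stood a median of 407 kb apart on the long arm, against 169 kb on the short arm. The longest stretch without a peak outside the centromere gap was the same in both libraries, 4.06 Mb from 33.5 to 37.6 Mb on the short arm. The longest stretch without an IDR region was 8.47 Mb, from 110.7 to 119.1 Mb on the long arm, followed by 5.79 Mb from 135.7 to 141.5 Mb.

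**Figure D4:**
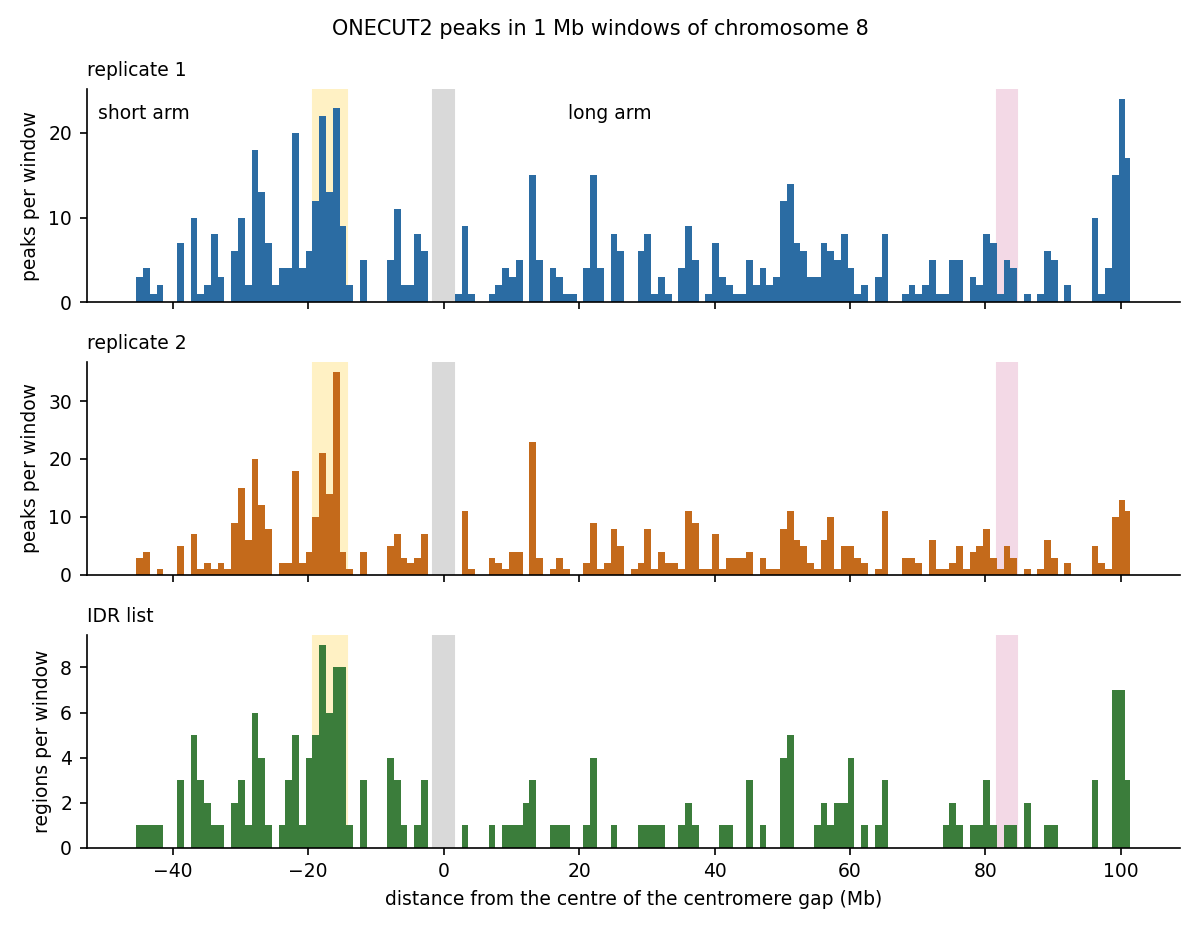
Peaks or regions in each 1 Mb window of chromosome 8 in the 3 lists, against the distance in Mb from the centre of the centromere gap, with negative distances on the short arm, grey for the gap, yellow for 26 to 31 Mb and pink for the 3 Mb before 130 Mb. The fullest windows hold 24 replicate 1 peaks, near the far end of the long arm, 35 replicate 2 peaks and 9 IDR regions, both on the short arm, and the pink stretch holds 10 peaks, 9 peaks and 2 regions.

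The windows at 27 to 28 Mb and 29 to 30 Mb were among the 5 fullest in all 3 lists. The window at 29 to 30 Mb on the short arm held 23 replicate 1 peaks, 35 replicate 2 peaks and 8 IDR regions. Its median folds were 3.91 in replicate 1 and 3.67 in replicate 2, over low median backgrounds of 5.61 and 5.53 fragments. The window at 27 to 28 Mb held 22 and 21 peaks and 9 IDR regions, with median folds of 2.85 and 3.08 over higher backgrounds of 13.9 and 10.9 fragments. The median peak was thus taller, and over lower background, in the window at 29 to 30 Mb. Peaks of 6-fold or more numbered 1 in replicate 1 and 3 in replicate 2 there, and 1 in each replicate at 27 to 28 Mb. Whether the medians differ because of the background was not tested. On the short arm the window at 23 to 24 Mb held 20 and 18 peaks and 5 IDR regions, and that at 17 to 18 Mb held 18 and 20 peaks and 6 IDR regions.

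On the long arm the window at 145 to 146 Mb, close to the end of the chromosome, was the fullest of replicate 1, with 24 peaks against 13 in replicate 2 and with 7 IDR regions. None of its peaks reached 6-fold, its median folds were 2.67 and 2.71, and its median backgrounds were 16.4 and 17.6 fragments. Of its 13 replicate 2 peaks, 12 overlapped a replicate 1 peak. The window at 144 to 145 Mb held 15 and 10 peaks and 7 IDR regions. In contrast, the window at 58 to 59 Mb held 15 replicate 1 and 23 replicate 2 peaks but 3 IDR regions. Its median folds were 3.72 and 3.75, and most of its peaks, 11 and 16, lay over the smallest background. The window at 30 to 31 Mb on the short arm held 9 and 4 peaks and 8 IDR regions, over high median backgrounds of 17.7 and 20.1 fragments. IDR regions and called peaks thus went apart in these 2 windows. Over all 147 windows, however, the counts of IDR regions had a Pearson correlation of 0.833 with those of replicate 1 peaks and 0.735 with those of replicate 2 peaks.

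The 5 neighbouring windows at 26 to 31 Mb, singled out after their values were seen, formed the most crowded part of the short arm. They held 79 replicate 1 peaks, or 15.8 per Mb, which is 30.7% of the short-arm peaks. They held 84 replicate 2 peaks, or 16.8 per Mb, which is 34.9% of the short-arm peaks. In the IDR list they held 36 regions, or 7.2 per Mb, of which 20 (55.6%) overlapped a peak in both replicates, against 63.3% of all IDR regions. These were 35.3% of the short-arm regions and 18.3% of those on chromosome 8. The median folds of 3.33 and 3.28 were close to the 3.30 and 3.41 of the whole chromosome, and 5 replicate 1 peaks (6.33%) and 6 replicate 2 peaks (7.14%) reached 6-fold, against 7.46% and 7.08% of the whole lists. Without this stretch the density of the long arm over the short arm was 0.851 in replicate 1 and 0.840 in replicate 2, both with a quasi-Poisson adjusted p of 0.459, and 0.562 in the IDR list, with an adjusted p of 0.0390. The stretch was chosen for its fullness and was left out of the short arm only, so a move of these ratios towards 1 follows from the choice and is no test of where the arm difference lies.

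The 8q24 stretch, which covers the 3 Mb before 130 Mb, held 10 replicate 1 peaks, or 3.33 per Mb, against 3.92 on the rest of the long arm. It held 9 replicate 2 peaks, or 3.0 per Mb, against 3.41 on the rest of the long arm. The IDR list had 2 regions there, or 0.667 per Mb, against 0.963 on the rest of the long arm. The stretch was therefore neither empty nor crowded. The density ratios were 0.851 (0.177 to 4.09), 0.880 (0.200 to 3.87) and 0.692 (0.0844 to 5.68), each with a quasi-Poisson adjusted p of 0.865. With 3 windows in the stretch, these intervals span from several-fold lower to several-fold higher.

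Peaks in the stretch had folds of 2.87 to 7.44 in replicate 1 and 2.67 to 6.64 in replicate 2. Of the 10 replicate 1 peaks 6 (60%) overlapped a replicate 2 peak, against 51.1% of the whole list, and of the 9 replicate 2 peaks 5 (55.6%) overlapped a replicate 1 peak, against 64.5% of the whole list. The tallest site ran from 128531515 to 128532031 in replicate 1, with folds of 7.44 in replicate 1 and 6.64 in replicate 2 (7.04 ± 0.567, SD, n = 2) and summits 11 bp apart. It rested on 39 and 38 fragments over the smallest background of each library. It was the one site of 6-fold or more in the stretch, it stood in place 683 of the 7370 pairs of all chromosomes by mean fold, and it overlapped no IDR region. A tall site over low background was thus missing from the IDR list.

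The most closely matched pair ran from 127570427 to 127570966, with 47 fragments in each library and folds of 3.56 and 3.48 (3.52 ± 0.0591, SD, n = 2), and it overlapped no IDR region either. The pair from 128908450 to 128908666 had folds of 3.60 and 2.93 and was likewise outside the IDR list. The remaining 3 pairs stood side by side near 129.2 Mb. Their replicate 1 peaks began at 129169141, 129169649 and 129169976, with folds of 3.04, 4.00 and 2.87. The replicate 2 folds were 4.17 for the first of these pairs and 4.39 for the other two, which shared 1 replicate 2 peak. These 3 pairs lay in the stretch's stronger IDR region, from 129168475 to 129170216, with a signal of 255 and rank 987 of 4297. That region also held a replicate 1 peak from 129168613 to 129169075, with a fold of 3.04 and no replicate 2 partner. The weaker IDR region, from 128806286 to 128807433, had a signal of 158 and rank 3369. It held a replicate 1 peak of 2.97-fold and no replicate 2 peak. In the 8q24 stretch the IDR list thus kept several low peaks close together and left out the tallest single one.

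Peaks without a partner in the stretch were all low, with folds of 2.96 to 3.04 in replicate 1 and 2.67 to 3.41 in replicate 2. In replicate 1 they included one from 128749178 to 128749395 with 28 fragments and a fold of 3.04. In replicate 2 they included one from 128747035 to 128747277 with 29 fragments and a fold of 2.67. These 2 peaks do not overlap, which follows from their having no partner.

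The 10 chromosome 8 regions of highest IDR signal were all matched by a peak in replicate 1 and in replicate 2, and 5 lay on each arm. Of all IDR regions 63.3% were so matched, but these 10 were picked for high signal. Their summits rested on 102 to 308 fragments per library, several times the median peak. The region of highest signal, on the short arm from 28558031 to 28559809, had a signal of 1264 and rank 5 of all 4297 regions. Its folds were 11.9 in replicate 1 and 10.2 in replicate 2 (11.03 ± 1.23, SD, n = 2), from 308 and 299 fragments over backgrounds of 24.97 and 28.5. The second, from 27460399 to 27461779 on the short arm, had a signal of 985, rank 34, and folds of 16.0 and 18.8 (17.4 ± 1.97, SD, n = 2). It was the one region among the 10 whose fold was higher in replicate 2. With the region at 29.4 Mb described below them, 3 of the 10 lay in the crowded 26 to 31 Mb stretch.

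On the long arm the strongest region ran from 144911086 to 144911989, with a signal of 865, rank 56, and folds of 13.8 and 11.6 (12.7 ± 1.58, SD, n = 2). The region from 81876988 to 81878067 had a signal of 770, rank 83, and the highest folds of chromosome 8, 30.1 and 23.7 (26.9 ± 4.54, SD, n = 2). It rested on 179 and 154 fragments over low backgrounds of 4.98 and 5.55, and its pair was second by mean fold among the 7370 pairs of all chromosomes. The order by signal and the order by fold thus differed, and fewer fragments over a low background gave the higher fold.

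Next in signal came the long-arm regions from 77911962 to 77913255, with a signal of 743 and folds of 13.8 and 9.43, and from 76319520 to 76321001, with a signal of 643 and folds of 12.03 and 9.44. The short-arm region from 16884274 to 16885560 had a signal of 600 (599.95 as deposited) and folds of 7.63 and 5.68. Among these 3, the first had the widest gap between the libraries (SD 3.08 around a mean of 11.6, n = 2).

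The short-arm region from 29412695 to 29413677 had a signal of 447 and folds of 22.7 and 22.1 (22.4 ± 0.399, SD, n = 2), from 121 and 129 fragments over the smallest background of each library. Its libraries differed least for its height among the 10 regions. The long-arm region from 95971907 to 95973133 had a signal of 446 and folds of 14.6 and 11.2. The tenth, from 17658468 to 17659754 on the short arm, had a signal of 443 and folds of 6.09 and 5.66 over high backgrounds of 20.01 and 22.2. Just outside the 10 was a short-arm region from 33342344 with a signal of 434. Chromosome 8 held 5 of the 100 IDR regions of highest signal (5.0%), 17 of the first 500 (3.4%) and 45 of the first 1000 (4.5%), near its 4.58% of the whole IDR list.

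**Figure D5:**
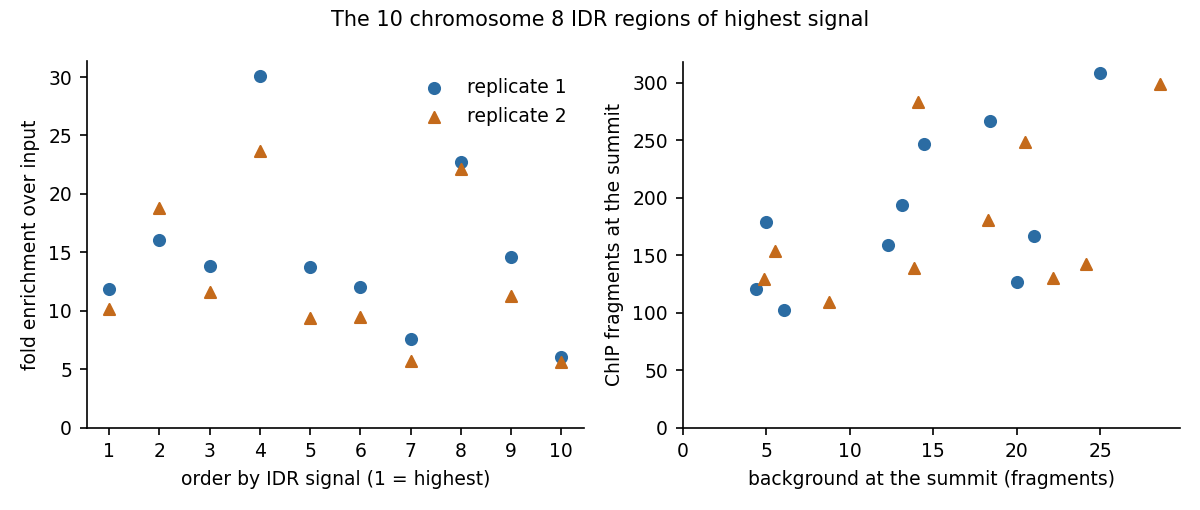
The 10 chromosome 8 IDR regions of highest deposited signal, with fold enrichment in replicates 1 and 2 on the left and ChIP fragments at the summit against local background on the right. Folds of 30.1 and 23.7 mark the long-arm region over a background near 5 fragments, while the region of highest signal has 308 and 299 fragments over backgrounds of 24.97 and 28.5.

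Ranked by mean fold instead of signal, 8 pairs led chromosome 8, and 5 of them lay in the IDR regions just described, at 81.9, 29.4, 27.5, 96.0 and 144.9 Mb. The fourth pair, from 120230225 to 120232597 on the long arm, had folds of 12.8 and 15.7 (14.3 ± 2.00, SD, n = 2) from 68 and 91 fragments over the smallest background, and its IDR region had a signal of 263 and rank 904. The fifth, from 105146030 to 105147445 on the long arm, had folds of 13.1 and 13.6 (13.3 ± 0.314, SD, n = 2), with an IDR signal of 241 and rank 1154. Both were thus among the tallest sites of the chromosome and further down the order of signal. The sixth, from 29414022 to 29414313, joined a low replicate 1 peak of 3.72-fold to a wide replicate 2 peak of 22.1-fold (12.9 ± 13.02, SD, n = 2). That replicate 2 peak also belonged to the second pair, and the summits of the sixth pair lay 1055 bp apart, so its mean does not describe 1 site.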

How the data were processed

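Data are ChIP-seq peak lists of 2 ONECUT2 libraries of 22Rv1 cells, each called against input, and an IDR list. Tools in the submitters' processing notes are BWA 0.7.13-r1126, MACS2 2.1.1 and Picard, and the build is hg19. In the replicate lists each peak has a deposited score, a fold enrichment (a ratio of ChIP to local input), and −log10 p and q values, made by MACS2 per the file headers. The smallest deposited −log10 q was 1.32 in both. The IDR list has a deposited score and signal of unnamed scale, whose caller is not given in the sources used here. Read depth is unknown, so precision follows from recovered fragments and counts of peaks.

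Peaks were placed in windows by summit. Fragments were recovered by inverting fold = (fragments + 1)/(background + 1) and the Poisson p, which gave whole numbers within 0.001 in 100% of peaks. The chromosome density ratios and the recovery of fragments were tested on simulated data, and the overlap search on shifted copies of replicate 1 peaks. The fits of the arms, the 8q24 stretch and the overlap shares, and the negative binomial fits, were not tested in this way. Regressions used Python 3.11.15, statsmodels 0.14.6 and scipy 1.17.1, two-sided, with an adjusted p of 0.05 as threshold. The overlap shares were fitted per window with a quasi-binomial model. Named were the 10 IDR regions of highest signal, the 8 pairs (replicate 1 peak and overlapping replicate 2 peak of nearest summit) of highest mean fold, every pair and IDR region of the 8q24 stretch, and the 5 densest windows of each list. Named after their values were seen were the 26 to 31 Mb stretch, some unpaired peaks of the 8q24 stretch and the eleventh IDR region. The regions, lists and tests were chosen with earlier results of these data known. Gene names were not used.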

Additional observations from a re-analysis of the deposited data

How the results depend on the processing

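Of 72 values under alternative settings, 56 were counted as unchanged, which for tested values means the same direction and side of the threshold. The 2 values for the mean of the replicate lists had no test. They were compared with the SD of the same 2 values, so they are no check. Without chromosomes 1, 7 and 12 in the comparison, the density ratio of chromosome 8 turned to 1.03 in replicate 1, 1.22 in replicate 2 and 1.12 in the IDR list, and to 1.01 for replicate 1 peaks of 6-fold or more. In that setting the overlap odds ratio was 1.03 for replicate 1 and passed at 0.690 for replicate 2. The higher density ratios follow from leaving out these dense chromosomes, while chromosomes 17 and 19, also dense, stayed in. Why the overlap ratios changed was not tested.

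The long-arm over short-arm ratio kept its direction throughout. With 5 Mb windows its value stayed but its interval widened, to 0.346 to 1.28 in replicate 1 and 0.336 to 1.14 in replicate 2. The ratio thus lost its call in replicates 1 and 2 (0.665 and 0.618, quasi-Poisson adjusted p of 0.211 and 0.176). It did so in replicate 1 with negative binomial regression (0.694, adjusted p = 0.0774). Of the alternatives added after seeing the data, it lost its call with peaks within 5 kb counted once (0.725 in replicate 1), without 26 to 31 Mb (0.851 and 0.840 in replicates 1 and 2, a stretch chosen for its fullness), with peaks of 6-fold or more (0.608 and 0.551) and with peaks found in both replicates (0.685 and 0.670, adjusted p of 0.0778). In the IDR list the ratio passed in every alternative run, at 0.351 to 0.562. Without replicate 1 or 2 the mean density ratio of chromosome 8 was 0.902 to 0.975. No paired analysis was possible because each density comes from 1 list and the comparison is between places in the same libraries. Few fragments per peak, and 3 windows in the 8q24 stretch, limit what could be detected.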
